A study of Mus musculus with 8 samples.

Results

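The genes described here are 9 Eph receptors and ephrins, chosen by name as members of this family: the receptors Epha3, Epha4, Epha5, Epha7, Ephb2 and Ephb3 and the ligands Efna5, Efnb1 and Efnb2. The array's annotation gave 27 probe sets of their own to 8 of the 9 genes, out of 45101 probe sets and 18193 named genes. No probe set was annotated to Ephb2 alone, and the gene was not analysed here. Probe sets annotated to several genes were not used, so this does not show that the array lacks Ephb2. Of the 27 probe sets 16 passed a signal filter (above the median of the array on at least 2 of the 8 arrays), which left 7 members among the 12093 genes tested. The other 11 probe sets lay below the array median on all 8 arrays, among them all 4 of Epha7, 3 of Epha4, 2 of Epha3 and 1 each of Efna5 and Efnb2. The other 13 genes of the family, some of which changed more than most members, are described further on, and the counts over the members describe these 9 genes alone.

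The study concerns the part played by c-Jun, an AP-1 transcription factor, in Schwann cells after nerve injury. There were 4 groups of 2 arrays each: uncut and cut nerve of adult control mice, labelled wild type, and uncut and cut nerve of adult c-Jun mutant mice, labelled knock-out. The sciatic nerve was transected on 1 side, and 7 days later a 10 mm piece of the distal stump (cut) and the uninjured nerve of the opposite leg (uncut) were taken, so uncut nerve came from animals that also carried an injury. Each array held RNA pooled from 4 or 6 mice, and the p-values below measure the spread between such pools. The sample labels do not name the driver of the mutation. In the mutant as published, floxed Jun is removed by Cre in Schwann cells, so other cells of the nerve keep the gene. In cut nerve the level of Jun itself differed by -1.33 between mutant and control mice on the log2 scale (SE 0.14, adjusted p = 0.0087), and Jun still rose by 0.99 after injury in the mutant. The labels call the tissue Schwann cells, but the RNA was that of a whole nerve segment. Of 9 markers of Schwann cells 7 had a probe set of their own, Sox10 and S100b among them, and all 7 lay above the array median on all 8 arrays.

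Eph receptors are receptor tyrosine kinases whose ligands, the ephrins, are themselves bound to the surface of a neighbouring cell, so that contact can signal into both cells. A-class ephrins hang on a lipid anchor and B-class ephrins cross the membrane, and most receptors bind ligands of their own class. The family is best known for repelling growing axons, for keeping cell populations apart and for shaping blood vessels. In cut nerve, ephrin-B on fibroblasts is known to meet EphB2 on Schwann cells and to sort Schwann cells into cords through Sox2 and N-cadherin.

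The upstream sequences of Epha5 and Epha4 are shown because these A-class receptors moved in opposite directions after nerve cut, as described below. Each run is the 250 bases before the gene's start, on the gene's own strand, 5′ to 3′, from RefSeq on build GRCm38.p6. Capitals mark CpG dinucleotides.

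Epha5, minus strand, chr5:84417383-84417632: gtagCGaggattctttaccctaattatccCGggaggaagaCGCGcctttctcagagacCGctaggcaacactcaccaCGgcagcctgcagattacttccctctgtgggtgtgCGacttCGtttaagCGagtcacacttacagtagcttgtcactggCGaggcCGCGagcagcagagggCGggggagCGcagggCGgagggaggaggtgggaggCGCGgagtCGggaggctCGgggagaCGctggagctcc

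Epha4, minus strand, chr1:77515089-77515338: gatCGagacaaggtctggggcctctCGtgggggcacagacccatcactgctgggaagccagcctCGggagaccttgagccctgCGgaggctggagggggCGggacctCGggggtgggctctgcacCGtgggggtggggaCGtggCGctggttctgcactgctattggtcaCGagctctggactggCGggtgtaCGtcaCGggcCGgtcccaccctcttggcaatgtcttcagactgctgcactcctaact

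The Epha5 run holds 20 CpG and has a GC content of 62.4%, and the Epha4 run holds 14 CpG with 66% GC. Over the 10 start windows of the 9 members (Epha7 has 2, which overlap) the CpG count ran from 13 in Efnb1 to 32 in Efna5, with a median of 20, against a median of 6 over all 32851 windows in the table. Windows of 300 bases, which add the 50 bases after the start, were searched on both strands for 3 motifs: TGANTCA, the site of AP-1 factors such as c-Jun, TGACGTCA, which AP-1 and CREB family factors share, and ACAAAG, a core that SOX factors bind. None of the 10 member windows held any of them, while 7.81%, 1.79% and 18.7% of all windows did. This says only that those letters are not in these windows.

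**Figure D1:**
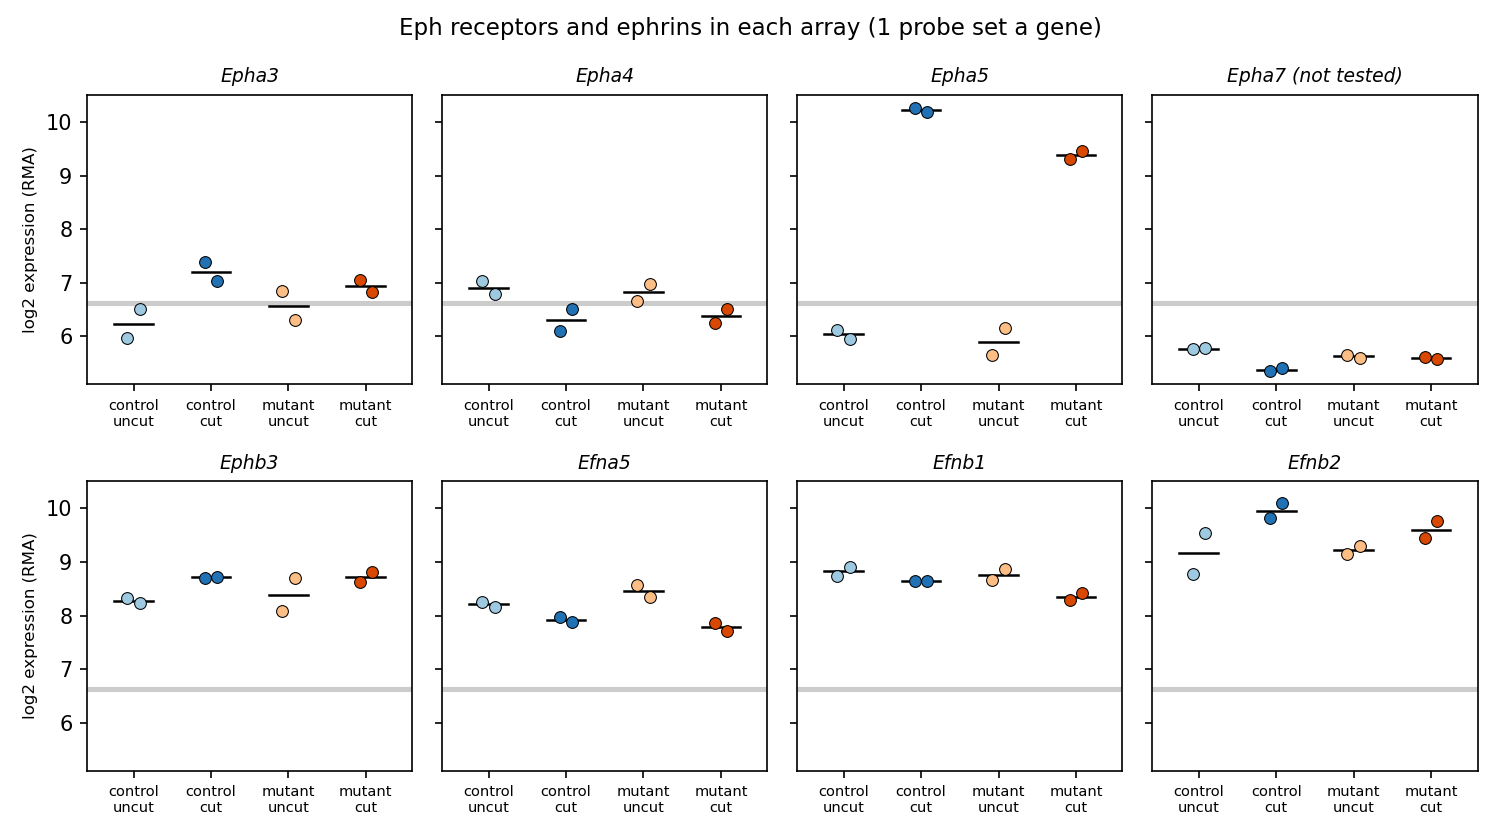
Expression on the log2 RMA scale of the members with a probe set of their own, by group, with 1 probe set a gene. Each point is 1 array, the horizontal lines are group means of 2 arrays and the grey band marks the array medians (6.59 to 6.65). Epha5 lies below the band on all 4 uncut arrays and far above it on all 4 cut arrays, while the other members move by about 1 unit or less.

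After nerve cut in control mice, Epha5 rose 18.3-fold from uncut levels below the array median, where a fold is not exact, Epha3 and Efnb2 rose by under 2-fold and Epha4 fell 1.51-fold. Thus 3 of the 7 tested members rose and 1 fell, while 22.8% of all tested genes were called higher and 17.5% lower. In c-Jun mutant mice Epha5 rose 11.2-fold, again from uncut levels below the array median, and the ligands Efna5 and Efnb1 fell, so 1 member rose and 2 fell against 18.1% and 17.8% of all genes. Epha5 lay above the array median on the 4 cut arrays alone, and Epha4 on the 4 uncut arrays alone. Each thus passed the filter only through the arrays where it was high, which limits its call and its place in these counts. A gene was called at an adjusted p under 0.05 in limma with Benjamini-Hochberg adjustment over all genes. The median member changed by 0.43 on the log2 scale in control nerve and by 0.33 in mutant nerve, against 0.05 and -0.0013 over all genes. Over the 15 tested genes of the whole family the medians were -0.18 and -0.21, so the member medians do not describe the family. Without regard to any test, cut arrays lay wholly above uncut arrays for 41.5% of genes and wholly below them for 31.6% in control nerve, and for 35.8% and 35.2% in mutant nerve. In a nerve segment, fewer cells of a type and less RNA per cell cannot be told apart.

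Epha5, a receptor for A-class ephrins known for its part in mapping axons in the brain, had the strongest change of the members. On its brightest probe set (1435286_at) the log2 values were 6.12 and 5.96 in control uncut nerve and 10.26 and 10.19 in control cut nerve. They were 5.65 and 6.15 in mutant uncut nerve and 9.31 and 9.47 in mutant cut nerve. All 4 cut arrays lay more than 3 units above all 4 uncut arrays, with no overlap. The rise was 4.19 in control nerve (SE 0.17, adjusted p = 3.8e-06) and 3.49 in mutant nerve (SE 0.17, adjusted p = 1.1e-05). The uncut values lay below the array median, where RMA compresses differences, so the folds may be too small.

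The other Epha5 probe sets gave the same direction. On 1437920_at the values were 5.05 and 5.19 in control uncut, 10.17 and 9.97 in control cut, 5.36 and 5.46 in mutant uncut and 8.98 and 9.24 in mutant cut nerve. On 1444690_at they were 6.12 and 5.73, 10.41 and 10.48, 5.48 and 5.88, and 9.24 and 9.40 in the same order. On the dimmest, 1420557_at, they were 5.16 and 5.01, 7.51 and 8.03, 4.84 and 4.83, and 6.50 and 6.88. On each probe set the cut arrays stood clear of the uncut arrays in both genotypes. The rises were 4.95, 4.52 and 2.69 in control nerve and 3.70, 3.64 and 1.86 in mutant nerve. In every one of these the adjusted p among all kept probe sets was at most 0.000357.

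**Figure D2:**
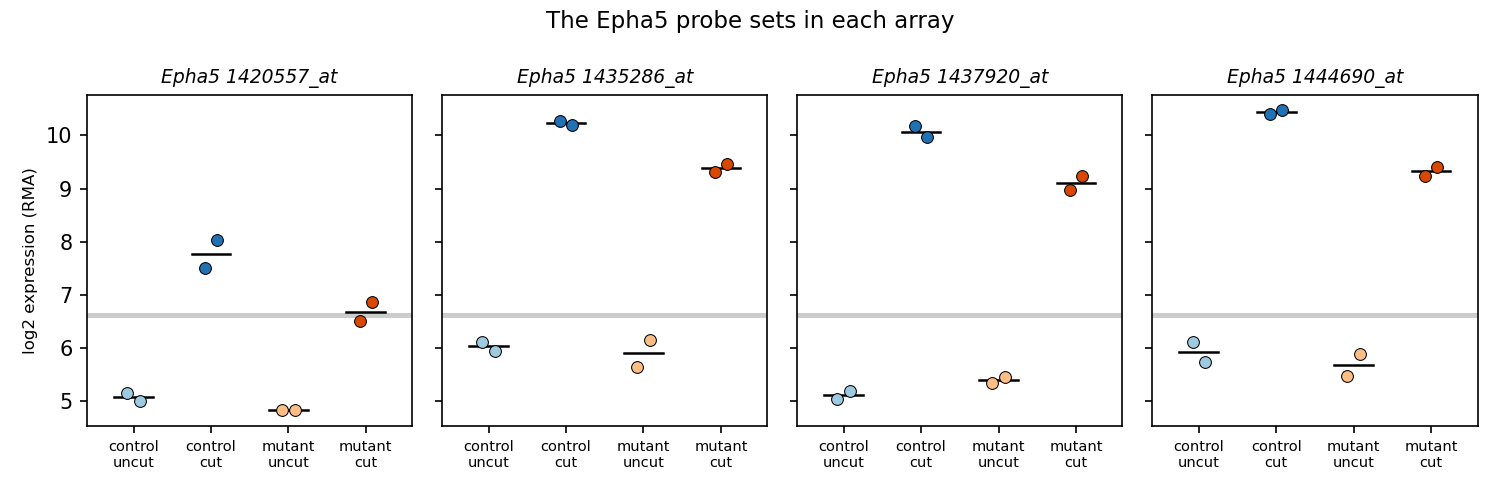
Log2 RMA expression of the 4 Epha5 probe sets in each of the 8 arrays. Points are arrays, lines are group means and the grey band marks the array medians. On every probe set the mutant cut arrays sit below the control cut arrays and above all uncut arrays.

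Epha3, another receptor of A-class ephrins, rose in control nerve. Its brighter probe set (1455426_at) gave 5.96 and 6.51 in control uncut, 7.38 and 7.03 in control cut, 6.85 and 6.30 in mutant uncut and 7.05 and 6.84 in mutant cut nerve. In control mice both cut arrays lay above both uncut arrays, and in mutant mice the groups overlapped. The change was 0.97 (SE 0.24, adjusted p = 0.015) in control mice and 0.37 (SE 0.24, adjusted p = 0.27) in mutant mice. A second kept probe set (1425575_at) gave 0.75 (adjusted p among probe sets = 0.0336) and 0.51 (0.122). The call did not hold when replicate 1 of the control cut group was left out (0.79, adjusted p = 0.084), nor when replicate 1 of the control uncut group was (0.69, adjusted p = 0.091).

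Epha4, which binds ephrins of both classes and turns motor axons away from ephrin in the limb, fell in control nerve. The brighter probe set (1421928_at) gave 7.03 and 6.79 in control uncut, 6.11 and 6.52 in control cut, 6.67 and 6.98 in mutant uncut and 6.25 and 6.50 in mutant cut nerve. Cut arrays lay below uncut arrays in either genotype, without overlap. The change was -0.60 in control nerve (SE 0.18, adjusted p = 0.033) and -0.45 in mutant nerve (SE 0.18, adjusted p = 0.092). The second kept probe set (1429021_at) gave 6.78 and 6.92, 5.19 and 5.87, 6.98 and 6.91, and 6.07 and 5.90 in the same order of groups, a fall of 1.32 in control nerve (adjusted p among probe sets = 0.002) and of 0.96 in mutant nerve (0.0098). The mutant result for Epha4 thus depended on the probe set, and with the mean of its probe sets the change was -0.70 (adjusted p = 0.014). On the brighter one the control call did not hold with replicate 1 of the cut arrays left out (-0.39, adjusted p = 0.17), nor with replicate 1 (-0.48, adjusted p = 0.16) or replicate 2 (-0.72, adjusted p = 0.055) of the uncut arrays left out.

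Epha7, an A-class receptor of the developing brain, lay under the array median on all 8 arrays with all 4 of its probe sets. The brightest (1443485_at) gave 5.77 and 5.78 in control uncut, 5.35 and 5.40 in control cut, 5.66 and 5.61 in mutant uncut and 5.61 and 5.58 in mutant cut nerve. When all genes were fitted without a filter its change was -0.40 in control nerve (adjusted p = 0.013) and -0.04 in mutant mice (adjusted p = 0.8). Values this dim give no firm level. On 1451991_at the control cut arrays were also the lowest, at 4.22 and 4.57, while the other 6 arrays ran from 5.10 to 5.57. On 1427528_a_at and 1452380_at the control cut and uncut arrays overlapped. Their changes were -0.10 and -0.115 in control nerve and -0.18 and -0.12 in mutant nerve.

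Ephb3, a B-class receptor known for guiding commissural axons and placing cells in the gut lining, was the only B-class receptor tested among the members. Its probe set gave 8.32 and 8.23 in control uncut, 8.71 and 8.72 in control cut, 8.09 and 8.69 in mutant uncut and 8.62 and 8.81 in mutant cut nerve. The control cut arrays lay above the control uncut arrays, and the mutant groups overlapped. The change was 0.43 in control nerve (SE 0.19, adjusted p = 0.099) and 0.33 in mutant mice (adjusted p = 0.21), and neither passed. The control change passed when only the control arrays were fitted (adjusted p = 0.022) or when either mutant uncut array was left out (adjusted p = 0.02 each). The mutant uncut arrays were far apart: the mutant change was 0.03 without their replicate 1 (adjusted p = 0.91) and 0.63 without their replicate 2 (adjusted p = 0.018).

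Among the ligands, Efnb2, a transmembrane ephrin known for marking arterial endothelium, rose in control nerve. Its brightest probe set (1419639_at) gave 8.78 and 9.55 in control uncut, 9.82 and 10.09 in control cut, 9.15 and 9.29 in mutant uncut and 9.44 and 9.76 in mutant cut nerve. Cut arrays lay above uncut arrays in each genotype, and the control uncut arrays were the most spread (SD 0.54). The change was 0.79 in control nerve (SE 0.24, adjusted p = 0.034) and 0.38 in mutant nerve (SE 0.24, adjusted p = 0.26). The control call did not hold with replicate 1 (0.93, adjusted p = 0.059) or replicate 2 (0.66, adjusted p = 0.15) of the cut arrays left out, with replicate 1 of the uncut arrays left out (0.41, adjusted p = 0.15), or when only the 4 control arrays were fitted (adjusted p = 0.051).

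The other kept Efnb2 probe sets were less spread. On 1419638_at the values were 7.57 and 7.69 in control uncut, 8.60 and 8.64 in control cut, 7.79 and 7.66 in mutant uncut and 8.07 and 8.07 in mutant cut nerve. That is a rise of 0.99 in control nerve (SE 0.10, adjusted p among probe sets = 0.000294) and of 0.34 in mutant nerve (adjusted p = 0.038). On 1449548_at the change was 0.93 in control nerve (adjusted p = 0.00409) and 0.11 in mutant mice (adjusted p = 0.654).

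Efna5, a lipid-anchored ligand of EphA receptors that sets up topographic maps of axons, fell in mutant nerve. Its kept probe set gave 8.26 and 8.16 in control uncut, 7.97 and 7.88 in control cut, 8.58 and 8.35 in mutant uncut and 7.87 and 7.71 in mutant cut nerve. Cut arrays lay below uncut arrays in both genotypes, and the mutant uncut arrays were the highest of all. The change was -0.28 in control nerve (SE 0.12, adjusted p = 0.09) and -0.68 in mutant nerve (SE 0.12, adjusted p = 0.0036). The control change passed in 1 of 8 alternative settings, with the replicate number as a block (adjusted p = 0.036). The mutant call held with each of the 8 arrays left out in turn.

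Efnb1, a transmembrane ephrin whose loss disturbs the boundaries of the skull, also fell in mutant nerve. Its brightest probe set (1418286_a_at) gave 8.74 and 8.91 in control uncut, 8.64 and 8.64 in control cut, 8.66 and 8.86 in mutant uncut and 8.29 and 8.42 in mutant cut nerve. The mutant cut arrays were the lowest of the 8. The change was -0.18 in control nerve (SE 0.12, adjusted p = 0.24) and -0.41 in mutant nerve (SE 0.12, adjusted p = 0.028). The other probe sets gave -0.46 (1451591_a_at, adjusted p among probe sets = 0.0287) and -0.27 (1418285_at, 0.321) in mutant nerve. The call did not hold with replicate 1 of the mutant cut arrays left out (-0.34, adjusted p = 0.13), with their replicate 2 left out (-0.47, adjusted p = 0.059), with mutant uncut replicate 2 left out (-0.30, adjusted p = 0.15), with the mean of the probe sets (-0.38, adjusted p = 0.057) and with only the mutant arrays fitted (adjusted p = 0.059).

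**Figure D3:**
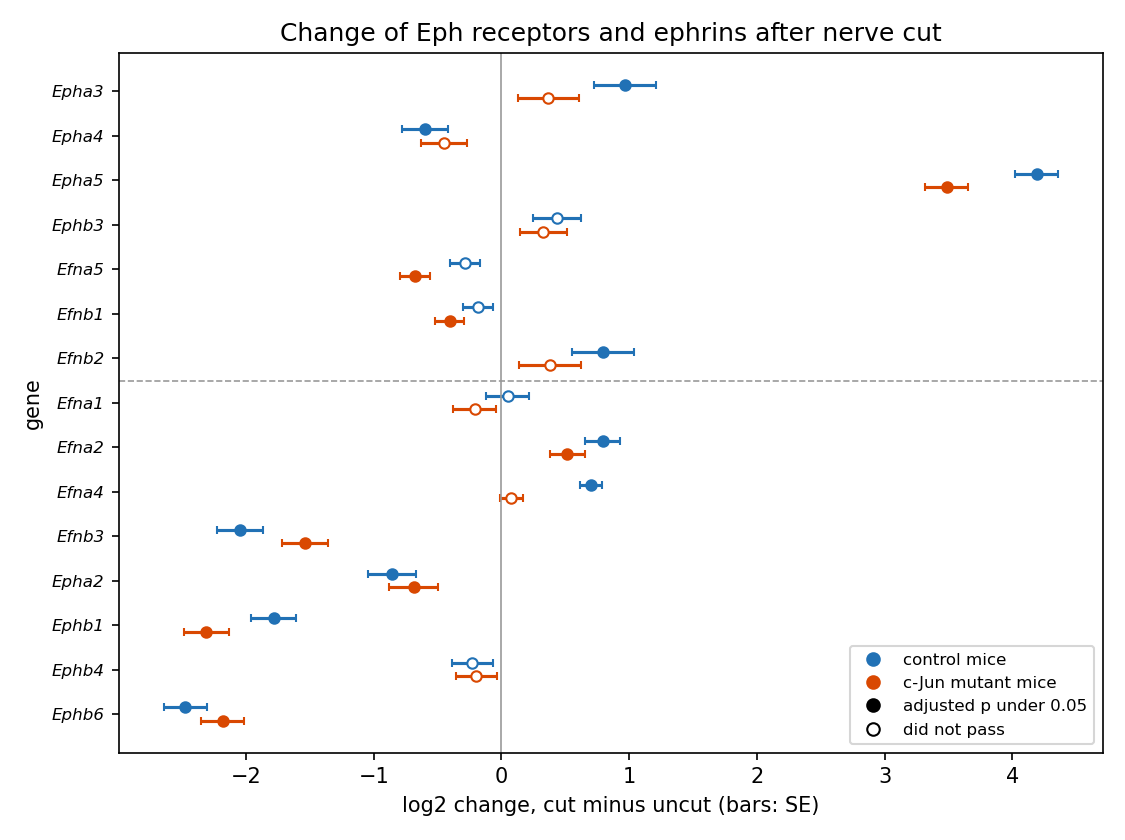
Log2 change after nerve cut (cut minus uncut) of each tested member, above the dashed line, and of the other tested Eph receptors and ephrins, below it. Bars are standard errors, filled points passed an adjusted p under 0.05 and open points did not. Epha5 is far to the right in both genotypes, and Ephb6, Ephb1 and Efnb3 are far to the left.

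The rest of the family, 13 further receptors and ephrins, had 8 tested genes. Of 4 tested receptors 3 fell and 0 rose in either genotype. Ephb6, a receptor whose kinase is inactive, fell by 2.48 in control nerve and fell by 2.18 in mutant nerve (adjusted p = 3.8e-05 and 8.1e-05). Ephb1, a receptor of B-class ephrins, fell by 1.78 and fell by 2.31 (adjusted p = 0.00021 and 7.4e-05), and Epha2, a receptor of epithelial cells, fell by 0.86 and fell by 0.69. Ephb4, the venous partner of Efnb2, changed by -0.23 and -0.20 and did not pass. Of the 4 tested ephrins Efnb3, a B-class ligand of the nervous system, fell by 2.05 and fell by 1.53 (adjusted p = 0.00013 and 6e-04). The A-class ligand Efna2 rose by 0.79 and by 0.52. Efna4 rose by 0.70 in control nerve (adjusted p = 0.00075) and changed by 0.08 in mutant nerve (adjusted p = 0.54). The difference between its 2 changes was -0.62 (interaction, adjusted p = 0.17) and did not pass, so the genotypes are not shown to differ in it. Efna4 lay above the array median on 2 of the 8 arrays, both of them control cut. It thus passed the filter only through the group where it was high, which limits its call and its place in the counts below. The same limit holds for Ephb6, above the array median on the 4 uncut arrays alone, and for the members Epha5 and Epha4. Over the 15 tested genes of the whole family 5 rose and 5 fell in control nerve, where 22.8% and 17.5% of all genes did, and 2 rose and 6 fell in mutant nerve, where 18.1% and 17.8% did.

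Many markers of cell types, and genes of the cell cycle, moved with the same comparison. Of 11 macrophage markers all 11 rose in control and 10 in mutant nerve. Their summed signal went from between 13.58 and 13.84 to between 15.61 and 15.71 in control nerve and from between 13.59 and 13.95 to between 15.49 and 15.74 in mutant nerve (log2). All 10 cell cycle genes rose in both genotypes, and of 10 skeletal muscle markers 7 rose in control and 10 in mutant nerve. Of 10 fibroblast and perineurial markers 4 rose and 3 fell in each genotype. Of 10 endothelial markers 2 fell in control nerve and 5 in mutant nerve, and 0 rose in either. Their summed signal went from between 12.51 and 12.65 to between 12.27 and 12.37 in control nerve. In mutant nerve it went from between 12.75 and 12.90 to between 12.33 and 12.38. In each genotype 1 of 10 mural cell markers rose and 4 fell, and 5 of 7 adipocyte markers fell. The mural marker that rose was Des (2.71 in control and 2.77 in mutant nerve). Of 7 Schwann cell markers 4 rose and 1 fell in control nerve and 5 rose and 1 fell in mutant nerve. Ngfr rose the most (3.93 in control and 3.39 in mutant nerve), and S100b was the 1 that fell (-0.92 and -1.04). Sox10 changed by -0.04 and -0.19 and did not pass. The 3 tested lymphocyte markers changed by a median of 0.45 and 0.11 and did not pass. The part of these shifts in the changes of the receptors and ephrins was not tested.

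In cut nerve, no member was called between c-Jun mutant and control mice, while 132 genes (1.09% of all) were. At an unadjusted p under 0.05 there were 2 members, Epha5 and Efnb1, and 1041 genes (8.61%). Epha5 came closest to the threshold. On its brightest probe set the difference of the means was -0.84 (SE 0.17, 95% interval -1.23 to -0.45, adjusted p = 0.076), a 1.79-fold lower level. On the other probe sets the difference was -0.96 (1437920_at, adjusted p among probe sets = 0.0248), -1.12 (1444690_at, 0.0342) and -1.08 (1420557_at, 0.0558). With the mean of its probe sets the Epha5 difference was -1.0 (adjusted p = 0.016), so the call depended on how probe sets were combined. Of 9 alternative settings, with Epha5 read from its brightest probe set or from that mean, only the mean passed. The difference ran from -1.0 to -0.84 over these settings, and from -0.92 to -0.76 with 1 array left out in turn. On all 4 probe sets both mutant cut arrays lay below both control cut arrays.

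The ligands among the members also lay lower in mutant cut nerve, by less than Epha5. Efnb1 differed by -0.29 (SE 0.12, adjusted p = 0.53), Efnb2 by -0.35 (SE 0.24, adjusted p = 0.85) and Efna5 by -0.14 (SE 0.12, adjusted p = 0.89), and none passed. On these probe sets both mutant cut arrays were below both control cut arrays, as was the case for 20.1% of all genes. The other kept Efnb2 probe sets gave -0.55 (1419638_at, adjusted p among probe sets = 0.0678) and -0.57 (1449548_at, 0.297). Among the receptors Epha3 differed by -0.27, Epha4 by 0.07 and Ephb3 by 0.01, with 95% intervals of -0.83 to 0.30, -0.35 to 0.49 and -0.43 to 0.44. Both signs of the Ephb3 and Epha4 differences occurred when an array was left out. Outside the members Ephb1 differed by -0.65 (adjusted p = 0.23), Efna2 by -0.55 (adjusted p = 0.17) and Efna4 by -0.42 (adjusted p = 0.1). Efnb3 differed by 0.23, Ephb6 by 0.21, Ephb4 by 0.05, Efna1 by 0.04 and Epha2 by -0.09, and none of these genes passed.

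**Figure D4:**
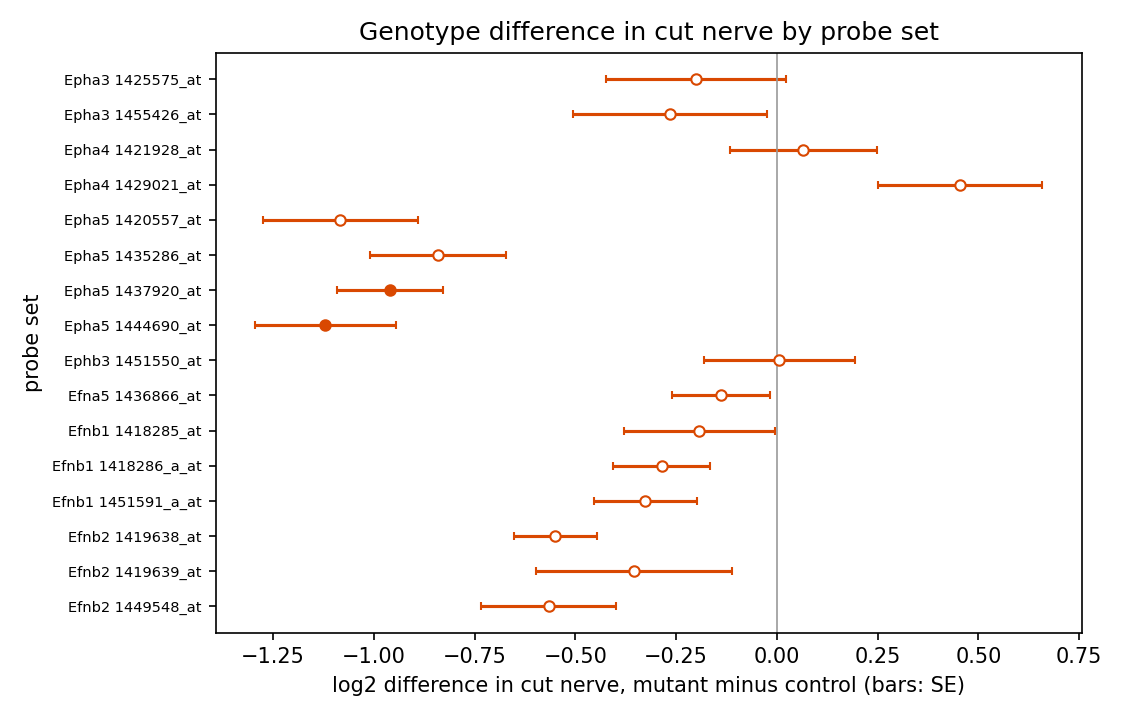
Log2 difference between c-Jun mutant and control mice in cut nerve for the 16 kept probe sets of the members. Bars are standard errors, and filled points passed an adjusted p under 0.05 among all kept probe sets. The 4 Epha5 probe sets lie between -1.12 and -0.84, and 2 of them passed.

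By their medians, marker lists were closer between the genotypes in cut nerve than Epha5 was, but single markers were not all so. The differences ran from -0.70, in Ngfr, to 0.20 over the Schwann cell markers. They ran from 0.12 to 0.71 over the cell cycle genes and from 0.09 to 1.06 over the muscle markers. No gene of the macrophage, endothelial, mural, muscle, adipocyte, Schwann or cell cycle lists was called, and the medians of these lists differed by -0.29 (Schwann cells) to 0.36 (cell cycle). Of the fibroblast list 1 gene was called, Thy1, with a difference of -0.81 (adjusted p = 0.016). The summed signal of the Schwann cell markers lay between 14.49 and 14.51 in control and between 14.19 and 14.22 in mutant cut nerve (log2). Its part in the lower Epha5 level was not tested.

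In uncut nerve 0 genes, 0% of all, were called between the genotypes, and 322 genes (2.66%) but 0 members had an unadjusted p under 0.05. Epha5 differed by -0.14 (95% interval -0.52 to 0.25), Epha3 by 0.34, Efna5 by 0.26 and the other members by less. The 2 genotypes' injury changes were compared in an interaction test, in which 20 genes (0.165%) and 0 members were called. Epha5 (-0.70, SE 0.24, adjusted p = 0.55) and Efna5 (-0.39, SE 0.17, adjusted p = 0.79) had an unadjusted p under 0.05, as had 731 genes (6.04%). The other Epha5 probe sets gave interactions of -1.25 (1437920_at, adjusted p among probe sets = 0.0899), -0.88 (1444690_at, 0.426) and -0.83 (1420557_at, 0.577). Epha3 gave -0.60 (SE 0.34, adjusted p = 0.96), Efnb2 -0.41, Efnb1 -0.22, Ephb3 -0.11 and Epha4 0.15. A call of Epha3, Epha4, Efnb1, Efnb2 or Efna5 in 1 genotype is therefore not shown to differ from the other.

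The genes whose pattern was most like that of Epha5 were Ngfr, Hmga2 and Fbn2, picked as the 3 with the lowest root mean square difference over the 8 arrays after centring each gene on its mean. Ngfr, the low-affinity neurotrophin receptor, is also in the list of Schwann cell markers. It differed by 0.11 and changed by 3.93 in control and 3.39 in mutant nerve, with -0.70 between the genotypes in cut nerve. Hmga2, a chromatin protein, differed by 0.17 (4.42, 3.55 and -0.96), and Fbn2, a microfibril protein, by 0.21 (4.18, 3.64 and -0.73).

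Of 29 tested genes that pass on Eph and ephrin signals, 8 rose and 8 fell in control nerve (22.8% and 17.5% of all genes) and 4 rose and 10 fell in mutant nerve (18.1% and 17.8% of all genes). Chn2, a Rac-inactivating protein of the chimaerin group that acts after EphA receptors, fell by 2.66 in control nerve and fell by 2.76 in mutant nerve (adjusted p = 9.8e-06 and 1.1e-05). Tiam1, an activator of Rac, fell by 1.76 and fell by 2.02, and Anks1, an adaptor that binds activated receptors, fell by 1.44 and fell by 1.05. Nrcam, an adhesion protein, rose by 2.33 and by 1.33 and was the 1 gene of the list called between the genotypes in cut nerve, with a difference of -0.97 (adjusted p = 0.033).

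Of 5 genes tied to the sorting of Schwann cells or growth, Sox2, the transcription factor through which EphB2 is known to act, rose by 2.71 in control and by 2.96 in mutant nerve (adjusted p = 2.7e-06 and 2.5e-06) and differed by -0.31 between the genotypes in cut nerve (adjusted p = 0.33). Cdh2, which encodes N-cadherin, changed by -0.38 in control nerve (adjusted p = 0.072) and fell by 0.70 in mutant nerve (adjusted p = 0.0079). Gap43, a growth cone protein, rose by 2.55 in control nerve, changed by 0.57 in mutant nerve (adjusted p = 0.082) and differed by -2.01 between the genotypes in cut nerve (adjusted p = 0.01). The catenins Ctnnb1 and Ctnna1, which link cadherins to the cytoskeleton, changed by -0.02 and -0.28 in control nerve and did not pass.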

How the data were processed

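RNA of 8 nerve pools was hybridised to 1-colour Affymetrix mouse arrays. The deposited values are log2 expression per probe set, made by the authors with RMA and the package affy, per the submitters' processing notes, with versions and build not given in the sources used here. Array medians lay between 6.59 and 6.65. Of 45101 probe sets 34945 named 1 gene in the platform annotation; 932 with several symbols, 9211 with none and 13 control probe sets with a symbol were not used to name genes. A probe set was kept above its array's median on at least 2 arrays, and each gene was read from its brightest kept probe set. With R 4.3.3 and limma 3.58.1, group means were fitted to all 8 arrays (4 residual degrees of freedom), with 5 contrasts, two-sided, and Benjamini-Hochberg adjustment over 12093 genes; single probe sets were adjusted over all kept probe sets. On simulated data the comparison of genotypes in cut nerve recovered 14% of genes changed by 0.5, 82% at 1 and 98% at 2 on the log2 scale. The simulated noise was independent between genes and arrays, and 50 genes were changed at each size, so recovery in the real arrays may differ. Scan dates were not given, so array batches were not tested. Members, gene lists and tests were chosen with earlier results of these data known. Named were all members, all measured family genes, up to 4 called genes of other lists with the highest change, Jun and the 3 genes most like Epha5; Ctnnb1, Ctnna1, Sox10 and S100b were added. Alternatives varied the filter, the probe set rule, centring, the variance model, array weights, the replicate block and the arrays fitted.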

Additional observations from a re-analysis of the deposited data

How the results depend on the processing

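The number of members called after injury in control nerve was 4, became 2 with a filter at the 75th percentile, which left 4 members tested, and ran from 1 to 5 with an array left out; without control cut replicate 1 or control uncut replicate 1 only Epha5 was called. In mutant nerve it was 3, and 5 with probe sets as units (Epha4 and Efnb2 added). For genotype in cut nerve it was 0, and 1, Epha5, with the mean of the probe sets or with probe sets as units, and 0 to 1 with an array left out. Of 573 values of members under alternatives 534 kept direction and call, 14 lost a call, 9 gained one and 16 changed sign. All sign changes were of genotype differences or interactions that had not passed: Ephb3 in cut nerve was -0.0289 with arrays centred on their median, Epha4 in uncut nerve 0.00624 with the mean of the probe sets. With an array left out, genotype in cut nerve ran from -0.137 to 0.269 for Epha4 and from -0.0896 to 0.102 for Ephb3; in uncut nerve from -0.24 to 0.0707 for Epha4, -0.387 to 0.116 for Epha5, -0.187 to 0.415 for Ephb3, -0.168 to 0.0385 for Efnb1 and -0.325 to 0.44 for Efnb2; the interaction from -0.0525 to 0.354 for Epha4 and -0.409 to 0.193 for Ephb3. The cause of these changes was not tested. With the replicate number as a replicate block 5 members were called after injury in control nerve, Efna5 added (-0.28, adjusted p = 0.036), 3 in mutant nerve and 0 in the other comparisons; correlations of arrays of the same number ran from 0.0226 to 0.34, 5 of 6 above 0.1, and the labels do not say that a number marks shared mice, so pairing was neither assumed nor excluded. Signal near background limits Epha7 and the uncut levels of Epha5, and 2 arrays a group limit all errors. Some group levels of Epha3, Epha4, Ephb1, Ephb6 and Efna4 also lay below the array median.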
